A study of Mus musculus with 5 samples.

Results

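Binding sites of 2 transcription factors, Hand1 and Foxf1, were examined around 10 genes that encode or mark the pluripotency network of mouse embryonic stem cells: Pou5f1, Sox2, Nanog, Klf4, Klf2, Esrrb, Zfp42, Prdm14, Tfcp2l1 and Dppa3. The genes were taken by name, and their sites were selected on measured values, namely every line of the 2 deposited peak lists whose summit lay in the gene or within 50 kb of either end. By this rule 14 of the 5703 Foxf1 lines and 1 of the 1134 Hand1 lines belonged to these loci. The 10 genes are a small part of the 21883 protein-coding genes in the gene table. All 10 symbols matched that table, which describes the GRCm38.p6 assembly.

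The sites come from chromatin immunoprecipitation followed by sequencing (ChIP-seq) in E14, a mouse embryonic stem cell line. Hand1 carried an HA tag knocked into its own gene and was precipitated at the stage labelled MES, after 48 h as embryoid bodies and 40 h of re-aggregation with VEGF, Activin A (10 ng/ml) and BMP4 (0.3 ng/ml). Foxf1 with an HA tag was expressed from an inducible construct and was precipitated at the stage labelled CP, after the same steps and a further 32 h as a monolayer with VEGF, basic FGF and FGF10 (25 ng/ml). The factor, the stage and native against forced expression therefore change together between the lists, and their parts in any difference cannot be told apart. The series holds 1 Hand1 library, 2 Foxf1 libraries and 1 input library per stage, and the peak lists deposited with the Hand1 sample and with the Foxf1 sample labelled replicate 1 were analysed. Whether the Foxf1 list rests on that library alone is not stated, and the series' H3K27ac libraries were not analysed here. The labels give the cell type as embryonic stem cells although the cells had been differentiated, and a peak list holds no expression values with which markers could be checked.

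Pluripotency rests on a core of transcription factors that bind one another's genes. Pou5f1 (Oct4), the homeodomain protein Nanog and the HMG-box protein Sox2 act in embryonic stem cells of every pluripotent state and are called general here. Klf4, Klf2, Esrrb, Tfcp2l1, Prdm14, Zfp42 (Rex1) and Dppa3 (Stella) are typical of the naive state of the early epiblast and are switched down as cells leave it. In differentiation towards mesoderm the network is shut down. Hand1 is a basic helix-loop-helix factor of extraembryonic and early cardiac mesoderm, and Foxf1 is a forkhead factor of lateral plate and splanchnic mesoderm.

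With 1 list per factor no value below has a replicate error, and no difference between them was tested. Fold enrichment is the authors' ratio of the signal at the summit to the local background. Its median was 7.92 over the Hand1 lines and 7.62 over those of Foxf1. The number of fragments at a summit and the control level there were inferred from that fold and the deposited −log10 p-value. The median summit held 26 fragments for Hand1 and 29 for Foxf1, so single sites rest on few fragments. The lowest −log10 q-value was 5.01 for Hand1 and 10.0 for Foxf1, so a weak site had a lower bar to pass in the Hand1 list.

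Hand1 was found at 1 of the pluripotency loci. Of the 10 genes, Prdm14 alone had a Hand1 summit within 50 kb, where 6.06% of all protein-coding genes had one. The share of 1 in 10 is near that background, so nothing is read from it about the group. The site lay at chr1:13073348-13073593, 39955 bp from the nearer end of Prdm14, the gene of a zinc-finger repressor that shields the naive state. It lay between genes and was weak: its fold was 6.66, its summit held 14 fragments over a control level of 1.25, and 37.1% of Hand1 lines had a fold as low or lower. Its −log10 q-value of 6.97 would not have entered the Foxf1 list. The nearest Foxf1 summit was 83.1 kb away.

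For the other 9 genes the nearest Hand1 summit lay 220 kb away at Tfcp2l1, 407 kb at Pou5f1, and more than 1 Mb away at the remaining 7. At Nanog and Dppa3 the distances were 6.05 Mb and 6.13 Mb. At Klf2 the distance was 10.9 Mb, and only 2.07% of all protein-coding genes were farther from a Hand1 summit. The median protein-coding gene lay 1040166 bp from one, so the pluripotency genes fell on both sides of it.

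**Figure D1:**
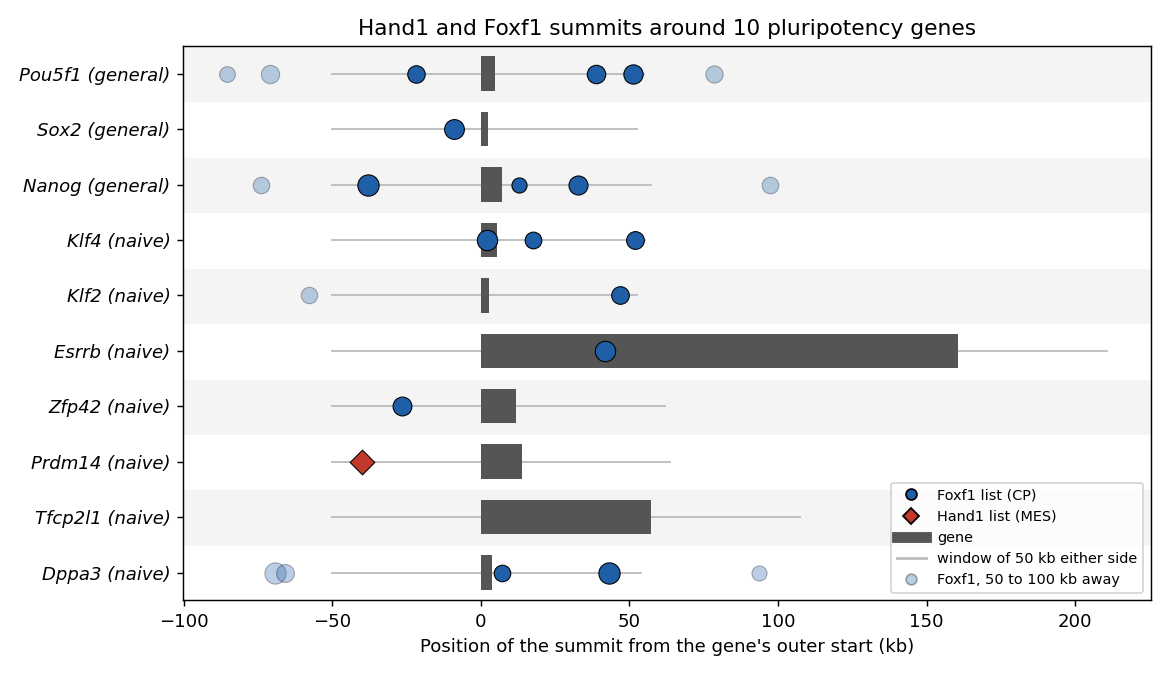
Positions of summits around the 10 genes, in kb from the outer start of each gene, with transcription to the right. Prdm14 and Dppa3 are drawn in chromosome order. Blue circles are Foxf1 summits, the red diamond is the Hand1 summit, marker area grows with fold, faint circles lie between 50 and 100 kb away, dark bars are genes and grey lines are the windows. Foxf1 summits sit around 8 of the 10 genes, and the Hand1 summit is at Prdm14, 1 of the other two.

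Foxf1 sites were found around most of the same genes. A Foxf1 summit lay within 50 kb of 8 of the 10, against 41.7% of all protein-coding genes. Prdm14 and Tfcp2l1 were without one. The 14 sites made 15 pairs of gene and site, because 1 site between Dppa3 and Nanog lay in the windows of both. Pou5f1, Nanog and Klf4 had 3 sites each, a number reached by 7.92% of protein-coding genes. Dppa3 had 2, and Sox2, Klf2, Esrrb and Zfp42 had 1 each. A summit lay inside the gene itself at Klf4 and Esrrb, which was so for 11.0% of protein-coding genes. Of the 14 sites, 4 lay inside another protein-coding gene and 8 outside all of them, and for 9 the nearest protein-coding gene was 1 of the 10. Counting a site only for its nearest protein-coding gene left 6 of the 10 genes with one, without Pou5f1 and Klf2. The matching shares over all Foxf1 lines and all genes are not given here. Within 10 kb the genes with a summit were Sox2, Nanog, Klf4, Esrrb and Dppa3, 5 of 10 against 22.7%.

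These shares describe genes that were listed with earlier counts from the same lists in view. Short genes have narrower windows, and 6 of the 10 are among the shortest of 3 equal groups of protein-coding genes (up to 8.73 kb). All 6 had a Foxf1 summit, against 37.4% of that group. Chromosomes 6 and 8 stood apart in the Foxf1 control level, with medians of 3.71 and 4.14 against 2.68 to 2.92 on the other 17 autosomes. In the Hand1 list these medians were 2.68 and 7.14 against 1.41 to 1.98. The part of this in the Hand1 distances there was not tested. A Foxf1 summit lay near 49.9% of the genes of chromosome 6, within the 31.0% to 59.2% of those autosomes, and near 63.6% on chromosome 8, above it. Nanog and Dppa3 are on chromosome 6, and Klf2 and Zfp42 on chromosome 8. Without these chromosomes, 4 of 6 genes had a Foxf1 summit, against 40.1% of protein-coding genes. When the Foxf1 list was shortened to as many lines as the Hand1 list, keeping the highest folds, only the site shared by Dppa3 and Nanog was left, at 2 of the 10 genes against 12.9%.

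**Figure D2:**
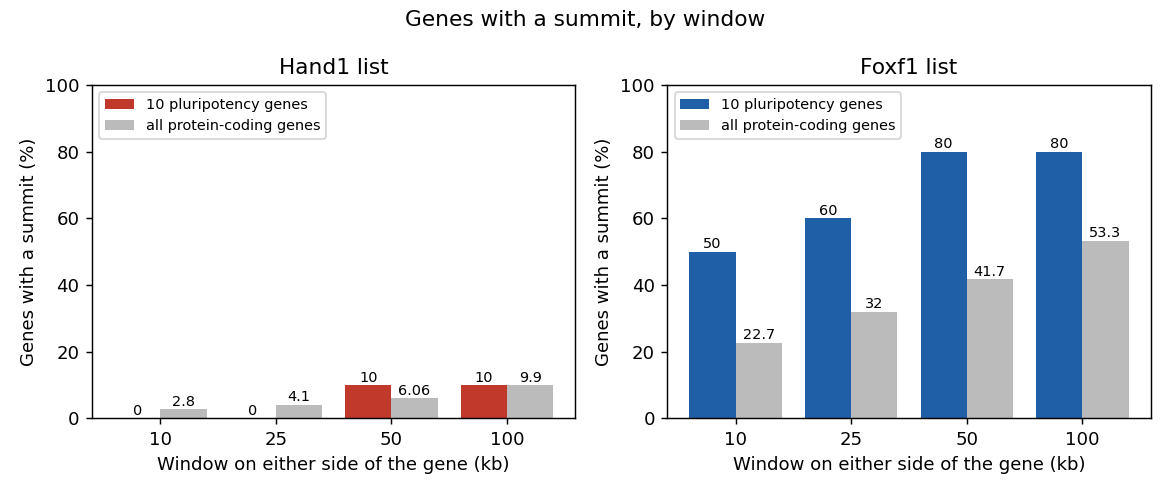
Share of the 10 pluripotency genes (coloured bars) and of all protein-coding genes (grey bars) with a summit inside the gene or within 10, 25, 50 or 100 kb, for the Hand1 list (left) and the Foxf1 list (right). In the Foxf1 list the coloured bars rise from 50.0% to 80.0% and the grey ones from 22.7% to 53.3%, and in the Hand1 list both stay at or below 10.0%.

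Among the general genes, Pou5f1 on chromosome 17 (35506032 to 35510777) had its Foxf1 sites on both sides. One lay 21.8 kb upstream of the start, at chr17:35484044-35484415, with a fold of 6.67 from 23 fragments. The other two were at chr17:35544744-35545055 (fold 7.45) and chr17:35556800-35557411 (fold 8.14), 34.1 and 46.3 kb beyond the gene's far end. None of these sites has Pou5f1 as its nearest protein-coding gene. The upstream site is closer to H2-Q10, a gene of the major histocompatibility complex, at 9.66 kb. The downstream sites both lie inside Cdsn, the gene of corneodesmosin, a protein of cornified skin cells, with 5 protein-coding genes nearer to each summit than Pou5f1. The locus is crowded, with 5 other protein-coding genes touching the 50 kb window.

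Sox2 on chromosome 3 (34649995 to 34652461) had the opposite surroundings. Its window held no other protein-coding gene, and the nearest one, Dnajc19, lay 569 kb away. Its single Foxf1 site, at chr3:34640505-34641110, lay 9.08 kb upstream of the start and inside Sox2ot, the long noncoding RNA gene that spans Sox2. The fold was 8.57, from 21 fragments over a control level of 1.57, the lowest level in the list.

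Nanog on chromosome 6 (122707489 to 122714633) had the strongest and the weakest of the 14 sites. The strongest, at chr6:122669384-122669862, lay 37.9 kb upstream of the start with a fold of 9.89, 45 fragments and a −log10 q-value of 29.1, and 81.6% of Foxf1 lines had a fold as low or lower. The site at chr6:122719981-122720605, 5.54 kb past the far end of the gene, had a fold of 5.00 from 32 fragments over a control level of 5.60. Only 2.67% of Foxf1 lines had a fold as low. A further site at chr6:122739842-122740465, with a fold of 7.92, lay inside Slc2a3, which encodes the glucose transporter Glut3, 25.5 kb from Nanog.

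Klf4, a zinc-finger factor and 1 of the classical reprogramming factors, was the naive gene with the most Foxf1 sites and lies alone in its window on chromosome 4 (55527137 to 55532475). The peak at chr4:55529956-55531683 covered a stretch of the gene itself. Its summit was 2.07 kb downstream of the start, with a fold of 9.06 from 29 fragments, and at 1728 bp it was the widest of the 14. Farther beyond the far end of the gene lay chr4:55514486-55515316 at 12.3 kb (fold 6.13) and chr4:55480365-55481313 at 46.5 kb (fold 6.89). The names of the first and the last of these end in a letter, which the peak caller gives to regions with several summits, and their other summits were not among the lines.

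Esrrb, an orphan nuclear receptor that sustains the naive state, is the longest of the 10 genes (161 kb, chromosome 12, 86361117 to 86521628). Its Foxf1 site at chr12:86402405-86403154 lay inside the gene, 18.7 kb upstream of the nearest annotated start, which is an internal one. The fold was 9.16, from 26 fragments. The gene table has no exons, so exon and intron positions are not given here.

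The remaining naive genes had weaker or more distant sites. Zfp42, a zinc-finger gene long used as a marker of undifferentiated cells, had a site 26.7 kb upstream of its start at chr8:43333564-43333854, with a fold of 7.77 from 20 fragments, and no other protein-coding gene in its window. Klf2, a relative of Klf4, had its single site 44.3 kb away at chr8:72365834-72366149 (fold 6.81), inside the neighbouring gene Eps15l1. Dppa3, a maternal factor that protects DNA methylation in the early embryo, had a site 3.34 kb from its nearer end at chr6:122633368-122633757, with a fold of 6.00 from 24 fragments, beside the site it shares with Nanog, 39.3 kb away. Of the genes with no Foxf1 site, Prdm14 was 123 kb and Tfcp2l1, a Grainyhead-like factor downstream of LIF signalling, 306 kb from the nearest Foxf1 summit. Of all protein-coding genes, 43.0% and 27.0% were farther away than these.

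The window set the count at a few genes. The sites just inside it were at 46.5 kb (Klf4), 46.3 kb (Pou5f1) and 44.3 kb (Klf2), and the first outside it were at 57.8 kb (Klf2) and 65.8 kb (Dppa3). Extending the window to 100 kb added 7 Foxf1 sites but no further gene.

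**Figure D3:**
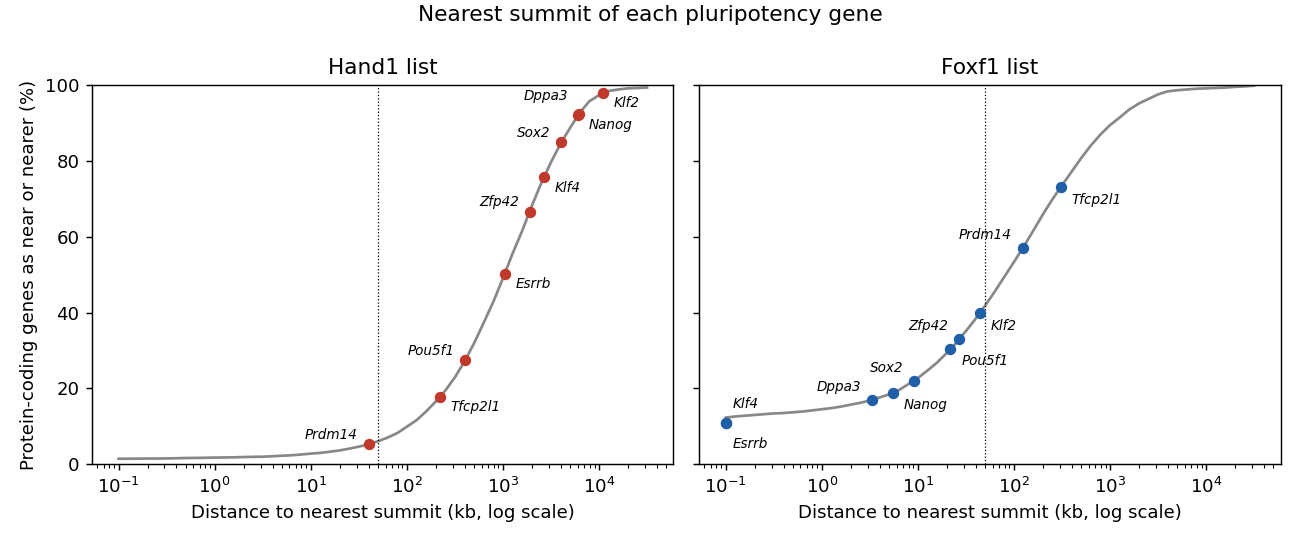
Distance from each of the 10 genes to its nearest summit (horizontal, kb, log scale, with genes that hold a summit placed at 0.1 kb) against the share of protein-coding genes as near or nearer (vertical, %), for Hand1 (left) and Foxf1 (right). The grey curve is all protein-coding genes and the dotted line marks 50 kb. In the Foxf1 list 8 genes lie left of the line, from 11.0% for Klf4 and Esrrb to 39.8% for Klf2, while in the Hand1 list the genes range from 5.24% for Prdm14 to 97.9% for Klf2.

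When the naive and the general genes were set side by side, a Foxf1 summit was near 5 of the 7 naive genes and near all 3 general ones. The 7 naive windows covered 955 kb and held 8 sites, or 0.838 per 100 kb. The 3 general windows covered 314 kb and held 7 sites, or 2.23 per 100 kb, with the site shared by Dppa3 and Nanog counted in both. The windows of all protein-coding genes, merged where they overlap (1686 Mb), held 0.311 Foxf1 summits per 100 kb. Merging counts crowded stretches only once, so this value is not an average per gene. Much of the naive length comes from Esrrb and Tfcp2l1, whose windows of 261 and 157 kb held 1 site and none. The median fold was 7.33 at the naive and 7.92 at the general genes. Within 10 kb the counts were 3 of 7 and 2 of 3. With so few genes, and with Nanog often counted as naive too, no difference between the classes was tested.

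The sites at these genes were of ordinary strength for the Foxf1 list. Their folds ran from 5.00 to 9.89 with a median of 7.61, against 7.62 for the whole list, and 7 of the 14 were above the list's median. The highest, 9.89, had 81.6% of the list at or below it. Summits held 19 to 45 fragments. Control levels ran from 1.57 to 5.60, with a median of 2.76 against 2.92 in the whole list, and none reached 7.83, the level taken as high because it is 5 times the lowest.

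**Figure D4:**
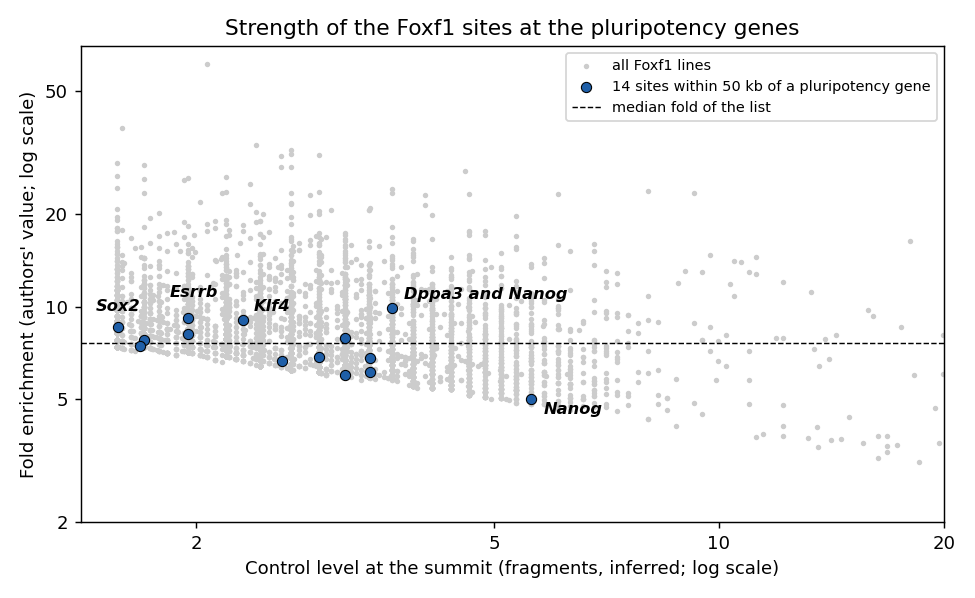
Fold enrichment (authors' value, vertical, log scale) against the inferred control level in fragments (horizontal, log scale) for all Foxf1 lines (grey) and the 14 sites at the pluripotency genes (blue); 116 lines with a control level above 20 and 12 without a solved level are not drawn. The dashed line is the list's median fold of 7.62, which 7 of the 14 sites exceed.

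No Foxf1 or Hand1 peak at these loci touched a promoter, taken as 250 bases before to 50 after an annotated start of any gene in the RefSeq promoter table (GRCm38.p6), whereas 18.4% of the 5663 Foxf1 lines and 16.0% of the 1122 Hand1 lines on chromosomes 1 to 19, X and Y did. The table holds 8 of the 10 genes, without Prdm14 and Dppa3. Klf4 came closest, with its peak ending 743 bp from the promoter window. The smallest gap was 8635 bp at Sox2, 12367 bp at Nanog, 18240 bp at Esrrb, 21367 bp at Pou5f1, 26305 bp at Zfp42 and 46723 bp at Klf2. The 250 bases upstream of 4 starts are shown, because no peak reached them: Klf4 as the closest, and Sox2, Nanog and Zfp42 as the genes with an octamer match. For Nanog it is the start from which its gap was measured. Capitals mark matches to the octamer core ATGCAAA, to the Sox motif ACAATG and to the Klf motif GGGTGTG, on either strand.

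Klf4, chr4:55532476-55532725, minus strand: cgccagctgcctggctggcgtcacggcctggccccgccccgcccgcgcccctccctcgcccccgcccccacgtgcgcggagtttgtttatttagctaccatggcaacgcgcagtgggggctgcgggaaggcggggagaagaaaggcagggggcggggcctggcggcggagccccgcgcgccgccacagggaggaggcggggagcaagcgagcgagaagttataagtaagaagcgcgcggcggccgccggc
Sox2, chr3:34649745-34649994, plus strand: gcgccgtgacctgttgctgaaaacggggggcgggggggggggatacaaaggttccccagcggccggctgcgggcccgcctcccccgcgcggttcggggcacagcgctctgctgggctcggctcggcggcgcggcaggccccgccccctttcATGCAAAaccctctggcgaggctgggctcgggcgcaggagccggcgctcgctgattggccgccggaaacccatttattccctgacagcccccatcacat
Nanog, chr6:122707315-122707564, plus strand: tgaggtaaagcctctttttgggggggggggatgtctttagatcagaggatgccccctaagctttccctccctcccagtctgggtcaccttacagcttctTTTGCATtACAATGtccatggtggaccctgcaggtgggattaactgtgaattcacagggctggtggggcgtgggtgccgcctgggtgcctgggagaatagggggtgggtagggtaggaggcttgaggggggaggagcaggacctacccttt
Zfp42, chr8:43307010-43307259, minus strand: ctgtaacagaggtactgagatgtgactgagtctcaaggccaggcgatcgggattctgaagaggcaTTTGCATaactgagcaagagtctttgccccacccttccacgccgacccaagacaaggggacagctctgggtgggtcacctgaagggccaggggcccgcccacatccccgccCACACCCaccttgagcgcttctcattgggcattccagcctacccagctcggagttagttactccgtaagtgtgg

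The Nanog sequence carries an octamer core at base -151 from this start, on the opposite strand, followed at -143 by a Sox motif, the arrangement long known as a target of the Oct4 and Sox2 pair. The octamer core also occurs upstream of Sox2 (-99) and Zfp42 (-185). Counting every annotated start, it was present in 4 of the 11 windows of these genes, 2 of which are overlapping windows of Nanog, and in 4.12% of all 32851 such windows. The Sox motif was in 3 of 11 against 10.7%, but 2 of these are the overlapping Nanog windows, which hold the same match, and the other is at Pou5f1. The Klf motif was in 2 of 11 (Zfp42 and Esrrb) against 6.93%. The E-box CANNTG, the core read by helix-loop-helix factors such as Hand1, was in 9 of 11 windows and in 66.2% of all. Here too the same match was counted in both Nanog windows. Neither the E-box form CATCTG (14.4% of all windows, and itself a case of CANNTG) nor the forkhead forms TGTTTAC (3.17%) and TGTTTGC (4.30%) nor the Esrrb motif AAGGTCA (4.08%) occurred in the 11. Searches covered both strands and only the forms named here, so other forkhead forms were not counted. The sequence under the peaks was not used here.

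No gene of the 10 had a site in both lists, and none of the 14 Foxf1 sites overlapped a Hand1 peak. A Hand1 summit lay near only 6.06% of all protein-coding genes, so 10 genes leave little room for such a case. The matching shares over all genes and all Foxf1 lines are not given here, and nothing is read from these counts about the group. The closest approach was at Pou5f1, where the nearest Hand1 summit was 361 kb from the outer downstream Foxf1 site.

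A wider set of 28 other pluripotency genes and 12 genes of the primed or formative state, the stage that follows the naive one, was counted by the same rule. A Foxf1 summit lay near 15 of the 28 (53.6%) and 6 of the 12 (50.0%), against the 41.7% of all protein-coding genes. Zfp281, a zinc-finger factor of the exit from naive pluripotency, had the most lines, 5, all summits of a single region inside the gene (chr1:136625008-136627985, folds 6.25 to 9.24). The DNA methyltransferase genes Dnmt3b and Dnmt3a, which rise in the primed state, had 3 each, with highest folds of 11.3 and 8.66. Stat3, the effector of LIF signalling, and Cldn6, a tight-junction gene, had 2 each, with highest folds of 11.2 and 8.66. The Cldn6 summits lay inside other genes, Mmp25 and Bicdl2, and the strongest Dnmt3a summit lay inside Dtnb. Primed genes without a Foxf1 site within 50 kb included Otx2 (536 kb) and Fgf5 (52.4 kb).

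Hand1 summits lay near 5 of the 28 other pluripotency genes (17.9%) and near none of the 12 primed genes, against 6.06% of all. Tdgf1 (Cripto), a co-receptor for Nodal that is also expressed in early mesoderm, had the strongest, at chr9:110948840-110949639, 3.18 kb from the gene, with a fold of 33.0 from 80 fragments, beside a weaker one at 1.50 kb (fold 6.68). Tbx3, which acts in pluripotent cells and in the heart, had sites at 2.39 kb (fold 6.62) and 18.8 kb (fold 12.0). Single sites lay 41.1 kb from Lin28a (fold 7.99), beside the gene Crybg2, and 46.7 kb from Zfp281 (fold 6.16). At Jarid2 the peak lay inside the gene (chr13:44869521-44870052, 2 summits) and overlapped the Foxf1 peak there, but the inferred control was high for both factors, 14.8 and 25.8 at the strongest summits, and its part in these calls was not tested.

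Many other genes matched Nanog in number of Foxf1 sites. Of the protein-coding genes with a length within 2 times its own, 400 also had exactly 3 Foxf1 summits within 50 kb. The number of genes in that length range is not given here. Over all lengths, 1031 of the 21883 protein-coding genes had exactly 3. The 5 of these with the highest fold were Ufc1 (61.3), T (25.6), Iscu (23.5), Tac4 (21.4) and Mrpl23 (20.0). T, also called Brachyury, is the classical marker of early mesoderm. Because the 5 were picked by fold, their values above the 9.89 at Nanog follow from that choice and set no contrast between T and Nanog. Whether these summits lie nearer to other genes is not given here.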

How the data were processed

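The peak lists of the Hand1-HA sample (MES) and of the Foxf1-HA sample labelled replicate 1 (CP) were used. Chromatin had been fixed with 1% formaldehyde and sheared to 200 to 800 bp, per the labels' protocols. The submitters' processing notes name Trim Galore 0.6.6, Bowtie2 2.3.4.3, SAMtools 1.9, deepTools 3.5.0, MACS2 2.2.7.1 and build mm10 (GRCm38). The control, the filters and whether libraries were pooled are not given in the sources used here. The deposited lists, in narrowPeak layout without a header, give per summit a fold enrichment (a linear ratio), −log10 p-value and −log10 q-value. The deposited score is 10 times the −log10 p-value and was not used further. The authors' values describe or rank peaks within a list.

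Every line was treated as 1 site, at its summit (start plus offset, written 1-based). Distances ran to the nearer end of the gene, or to the nearest annotated start in the RefSeq promoter table where named. Backgrounds covered protein-coding genes on chromosomes 1 to 19, X and Y. Summit fragments k and control level λ were solved as whole k from fold = (k + 1)/(λ + 1) and the Poisson tail, within 0.02% of the −log10 p-value, taking the highest λ. This gave a solution for 100% of Hand1 and 99.8% of Foxf1 lines. Tested on simulated peaks drawn from the same equations, it returned k for 2000 of 2000, which checks the solving and not the choice of equations. The form of the equation is inferred, so λ is not a measured value. With 1 list per factor, and with genes not being replicates, no test was run and all shares are descriptions.

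The 10 genes, the classes and the wider lists were chosen with earlier results of these data known. All 10 genes are named. Of the 28 and 12 wider genes, those with a Hand1 site and the 5 with the most Foxf1 sites (ties by fold) are named with values; Otx2 and Fgf5 were added after their values were seen. For each site within 50 kb of the 10 genes the nearest protein-coding gene is named where it is not the listed gene. For sites of the wider genes this was not done throughout. Genes like Nanog were ranked by fold. The plan called for motif searches only at promoters with a site. None had one, so the search of all 11 windows is an addition. Work was done in Python 3.11.15 with numpy 2.4.6, scipy 1.17.1, pandas 2.3.3 and matplotlib 3.10.9. Alternatives were other windows, q-value, fold and control limits, merged regions and nearest-gene assignment.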

Additional observations from a re-analysis of the deposited data

How the results depend on the processing

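Of 68 alternatives over 10 counts and shares, 39 stayed close to the value given (within 1.5 times for counts, within the 95% binomial interval for shares) and 29 did not. For shares over 7 or 3 genes that interval is wide, 29.0% to 96.3% for Foxf1 at the naive genes, so staying within it says little. At 10 kb the Foxf1 shares of 42.9% (naive) and 66.7% (general) counted as close, against 71.4% and 100% at 50 kb. The single Hand1 site at Prdm14 was lost, leaving 0 sites and 0 genes, with windows of 10 kb and 25 kb (0% of naive genes), with −log10 q-values limited to 10 or more, and with a fold of at least the list's median. The share of all protein-coding genes with a Hand1 site was 2.80% at 10 kb, 4.10% at 25 kb, 9.90% at 100 kb and 3.61% under the same limit on the −log10 q-value. Foxf1 sites numbered 5 at 10 kb, 7 at 25 kb, 7 with a fold of at least the median, 9 when a site counted only for its nearest protein-coding gene, 8 without chromosomes 6 and 8, and 1 with as many lines as the Hand1 list. Genes with a Foxf1 site numbered 5 at 10 kb, 4 of 6 without chromosomes 6 and 8, and 2 with as many lines as the Hand1 list. The background share for Foxf1 was 22.7% at 10 kb, 32.0% at 25 kb, 53.3% at 100 kb, 31.8% over all genes of the table, 40.1% without chromosomes 6 and 8, and 12.9% with as many lines as the Hand1 list. Each follows from fewer or more lines, genes or bases being counted. The alternatives on chromosomes 6 and 8, on list length and at 25 kb for the background were added after seeing the data. No paired analysis was possible because each factor has a single list (1), which also leaves no replicate to drop. Depth is not given in the lists, and sites weaker than the limits on the q-value are not in them.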

Other observations

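The stretch around Dppa3 and Nanog was dense in Foxf1 sites, an interval chosen after its values were seen. Dppa3 and Nanog lie 77.2 kb apart, and from 100 kb outside one to 100 kb outside the other (288 kb, chromosome 6) there were 7 Foxf1 lines, or 24.3 per Mb, against 3.23 per Mb over chromosome 6. Of these, 1 lay 2.27 kb from Slc2a3 at chr6:122804426-122804845 (fold 6.09). Upstream of Pou5f1, past the 50 kb limit, Foxf1 sites lay 4.08 kb from H2-Q7 (chr17:35434831-35435283, fold 7.36) and 4.19 kb from H2-Q6 (chr17:35420447-35420848, fold 5.46), both class I histocompatibility genes. The control level at the site near H2-Q6 was 7.06, close to the 7.83 taken as high.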
